A study of Homo sapiens with 30 samples.

Results

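The 43 genes described here are interferon-stimulated genes, chosen by name as a module of the antiviral programme, and all 43 were found among the 33538 genes of the count table. Each library is shown on its own, because single libraries moved this set. Poly(A) RNA had been sequenced from 3 Ewing sarcoma lines, CHLA10, A673 and TC32, a tumour of bone and soft tissue driven in these lines by the fusion transcription factor EWS::FLI1. BMS-986158 is an inhibitor of the BET proteins, which bind acetylated histones and help recruit the transcription machinery. It had been given at 5 nM, and the controls had received the vehicle DMSO. There were 10 groups of 3 libraries, 30 in all: each line with drug or vehicle for 72 hours (labelled 3 days), and CHLA10 and A673 with drug or vehicle in a 20-day arm, in which the drug was kept on without a break and cells were split at confluency. The labels call the 20-day treated cells persisters. They give neither the duration of vehicle in that arm nor whether the replicates came from separate cultures. The p-values therefore speak only for the spread of these libraries, possibly a technical one. The medium of CHLA10 differed from that of the other lines, and line and medium cannot be told apart.

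Type I and type III interferons bind receptors that signal through the kinases JAK1 and TYK2. These activate STAT2 and its partners, which join IRF9 and bind the interferon-stimulated response element (ISRE) in the promoters of target genes. Interferon gamma acts through another complex that binds the gamma-activated site (GAS), and IRF1 and IRF7 are factors that are induced by interferon and amplify the response. The products sense viral RNA (IFIH1, DDX58, DDX60), trigger its decay (OAS enzymes), block its translation (IFIT proteins), bar viral entry or release (IFITM proteins, BST2), or tag proteins with the ubiquitin-like ISG15. Many tumour lines transcribe some of these genes without added interferon.

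The promoters are shown first, searched for the elements named above. RefSeq promoter windows on GRCh38.p14, 250 bases before to 50 after the annotated start, were at hand for 36 of the 43 members. The ISRE core was searched as GAAA, any 2 bases, then GAAA on both strands, with overlapping matches counted separately. It was present in 21 members (58.3%) and in 3.57% of 35116 windows of the same length. GAS was searched as TTCNNNGAA, which reads alike on both strands. It was present in 10 members (27.8%) and in 7.66% of all windows, and 11 members held neither. A match is a description of letters, not a bound site. The 200 bases upstream of the start are printed below for 4 members, 5' to 3' along the gene, with the ISRE cores (first 3) or the GAS match (IRF1) in capitals. A run of T and C in capitals is a core on the other strand. IFI6 varied widely between libraries of a group, IFIH1 was called lower in each treatment comparison, HERC5 was called in opposite directions in different lines, and IRF1 was called higher while most of the set was not.
IFI6 (chr1:27672193-27672392, minus strand): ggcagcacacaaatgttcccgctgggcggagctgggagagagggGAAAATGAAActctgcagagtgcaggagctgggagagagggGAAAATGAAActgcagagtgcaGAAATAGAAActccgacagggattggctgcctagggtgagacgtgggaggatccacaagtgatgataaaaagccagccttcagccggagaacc
IFIH1 (chr2:162318685-162318884, minus strand): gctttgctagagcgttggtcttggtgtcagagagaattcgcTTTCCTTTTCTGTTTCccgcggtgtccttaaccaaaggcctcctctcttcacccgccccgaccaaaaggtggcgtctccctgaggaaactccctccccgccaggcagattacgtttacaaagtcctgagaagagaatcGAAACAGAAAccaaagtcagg
HERC5 (chr4:88456919-88457118, plus strand): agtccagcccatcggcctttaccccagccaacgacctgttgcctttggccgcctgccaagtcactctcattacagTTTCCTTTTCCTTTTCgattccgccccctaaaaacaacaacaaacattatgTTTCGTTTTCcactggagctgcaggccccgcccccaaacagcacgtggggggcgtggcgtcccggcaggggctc
IRF1 (chr5:132490774-132490973, minus strand): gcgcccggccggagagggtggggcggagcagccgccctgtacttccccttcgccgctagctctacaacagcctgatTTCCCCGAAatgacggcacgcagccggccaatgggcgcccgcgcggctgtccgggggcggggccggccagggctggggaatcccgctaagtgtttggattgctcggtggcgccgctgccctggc
IFI6, IFIH1 and HERC5 each hold 3 cores. In TC32 at 3 days, 13 of the 20 tested members with the core were called lower (median log2 change -1.74), as were 8 of the 15 tested members whose window lacked it (median -1.73), beside 22.8% of all genes tested. In A673 at 3 days the counts were 9 of 20 (median -1.28) and 4 of 15 (-0.38), beside 18.4% of all genes. In CHLA10 they were 6 of 20 (-0.97) and 4 of 15 (-0.26), beside 15.7%, and without treated replicate 3 they were 17 of 21 (-2.14) and 5 of 15 (-0.72), beside 14.1%. Only the first listed window of each member was searched. GAAA repeats with another spacing, as in OAS1 and RSAD2, were not counted as a core. These counts are descriptions, and no difference between the sets was tested.

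Total counts ran from 16083677 to 48949739 per library. Of the 43 members, 40 passed the filter on low counts, and OAS2, OASL and EPSTI1, with at most 79 counts over all 30 libraries, did not. The labelled tumour type was checked against CD99, NKX2-2, NR0B1, STEAP1 and PAX7. CD99 was at 367 CPM (counts scaled to library size) or more in each group mean, but NKX2-2 was at 1.20 ± 0.128 CPM (SD, n = 3) in vehicle CHLA10 at 3 days, against 50.6 ± 5.62 in A673 and 84.3 ± 11.4 in TC32. All 5 markers had counts in each group. NKX2-2, STEAP1 and PAX7 were called lower under drug in CHLA10 at both times and in A673 at 20 days, and STEAP1 also in A673 at 3 days. NR0B1 was called lower only in A673 at 20 days, and CD99 only in TC32. Of markers of cells that make or answer interferon in tissue, the T-cell genes CD3D and CD3E were at 0 in all 30 libraries, as were the B-cell gene MS4A1 and the plasmacytoid dendritic cell gene CLEC4C, and the pan-leukocyte gene PTPRC had 34 counts in all. CORO1A and CD79A, also on these lists, were detected (up to 16.5 and 24.3 CPM). CORO1A rose in CHLA10 at 20 days (2.18 ± 0.40, adjusted p = 0.00011) and CD79A fell in all 5 treatment comparisons. The 3 leukocyte markers summed to 0.991 to 2.85 CPM under vehicle and 3.84 to 16.5 CPM under drug in CHLA10 at 20 days, and their part in the results was not tested.

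In all 10 groups the members spread more between libraries than all genes did, and most so in the treated CHLA10 groups. Members and all genes were not matched for level, and low counts alone widen a log2 spread. The mean log2 CPM over the 40 members was 0.51, 0.45 and 1.80 in the 3 CHLA10 libraries treated for 3 days, against 1.98, 2.06 and 1.92 under vehicle. Treated replicate 3 thus stood near the vehicle libraries: it was the highest of its group for 31 of 40 members and for 36.1% of all genes tested, and its median difference from the other two was 1.00 (log2) over members and 0.00 over all genes. In the 20-day arm the treated libraries stood at 2.76, 1.23 and 1.75 and the vehicle libraries at 2.03, 1.76 and 1.58. Treated replicate 1 was the highest of its group for 32 members and treated replicate 2 the lowest for 27. The median SD of log2 CPM within these treated groups was 0.69 at 3 days and 0.97 at 20 days over members, against 0.15 and 0.21 over all genes. In the other 8 groups it was 0.17 to 0.44 over members and 0.10 to 0.26 over all genes. In TC32 the libraries stayed within 2.65 to 2.70 under vehicle and 1.32 to 1.38 under drug, and the groups lay far apart. The treated CHLA10 libraries held 22175364 to 24857334 counts at 3 days and 25116060 to 26322159 at 20 days. Their mitochondrial share was 1.77%, 1.93% and 1.78% at 3 days and 2.04%, 0.995% and 2.24% at 20 days. What set these libraries apart was not tested.

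**Figure D1:**
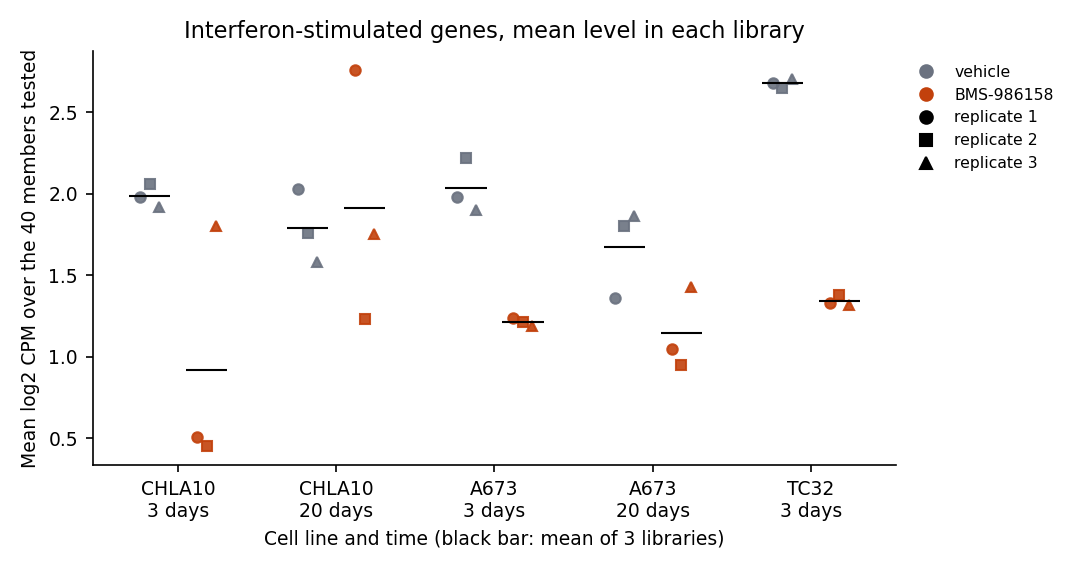
Mean log2 CPM over the 40 members tested (y axis) in each of the 30 libraries, by cell line and time (x axis), with vehicle in grey and BMS-986158 in orange; symbols give the replicate and black bars the mean of 3 libraries. The treated CHLA10 libraries range from 0.45 to 1.80 at 3 days and from 1.23 to 2.76 at 20 days, while those of TC32 lie between 1.32 and 1.38.

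At 3 days the members were mostly lower under BMS-986158 in each line. In TC32, 24 of 40 members fell and 1, IRF7, rose, beside 22.8% of all 16713 genes called lower and 22.3% called higher. In A673, 16 fell and 1 rose, again IRF7 (all genes: 18.4% lower, 15.3% higher). In CHLA10, 12 fell and 3 rose (all genes: 15.7% lower, 14.0% higher). A gene was called at an adjusted p under 0.05 in edgeR's quasi-likelihood test, with p adjusted over all genes tested. The median log2 change over members was -1.70 in TC32, -1.18 in A673 and -0.84 in CHLA10, beside -0.008, -0.016 and -0.011 over all genes. The CHLA10 count moved with 1 library. Without treated replicate 3, 23 of 43 members were called lower and 2 higher (all genes: 14.1% and 12.9%), with a median of -1.71. The 23 held 11 of the 12, without USP18, and added BST2, DDX60, EPSTI1, IFI44, IFI44L, IFI6, IFIT1, IFIT3, IFITM1, IRF9, ISG15 and MX1. With 1 library left out, the count lower was 10 to 15 in A673 and 19 to 22 in TC32. IFIH1, OAS1, OAS3, IFITM2, IFITM3, CMPK2, USP18 and PARP14 were called lower in all 3 lines, and no member was called higher in all 3. How many of all genes were called alike in all 3 lines was not counted. The 3 comparisons share no control library. In bulk RNA, fewer cells that express a gene and less of its RNA per cell cannot be told apart.

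At 20 days more members were called higher than at 3 days in both lines, and so were more of all genes tested. In A673, 12 members were called lower and 6 higher, with a median of -0.37 (all genes: 19.9% and 19.7%, median 0.000). Those 6 were a smaller share than that of all genes called higher. In CHLA10, 7 were called lower and 10 higher, with a median of 0.16 (all genes: 17.2% and 16.5%). Of the 10, MX2, IRF7 and PSMB9 had at most 3 counts in the vehicle group. Without treated replicate 1, the CHLA10 counts were 10 lower and 7 higher of 43 (all genes: 15.2% and 14.9%), with a median of -0.42. OAS1, OAS3 and SAMD9 then joined the members called lower, and DDX60, IRF9 and MX2 left those called higher. Without treated replicate 2 they were 4 lower and 12 higher, without treated replicate 3 they were 4 and 7, and the lowest count higher was 6, without vehicle replicate 2. Libraries of this arm with the same replicate number deviated weakly alike from their group means, which does not establish a pairing. A fit with the number as a block called the same 10 and 7 members. IFIH1, IFITM2 and CMPK2 were called lower in all 5 treatment comparisons, and IRF1 and IRF7 were called higher in at least 3. The share of all genes with such repeated calls was not counted.

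**Figure D2:**
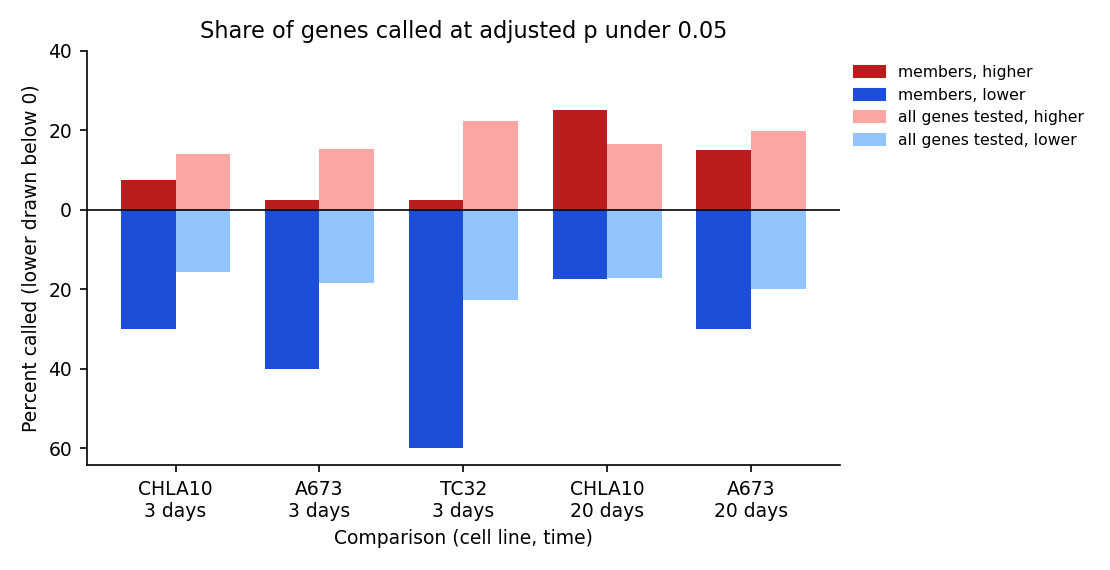
Percent of the 40 members (dark bars) and of all 16713 genes tested (pale bars) called higher (above 0) or lower (below 0) in each treatment comparison on the x axis, at an adjusted p under 0.05. Members called lower make up 60% in TC32, 40% in A673 and 30% in CHLA10 at 3 days, beside 22.8%, 18.4% and 15.7% of all genes.

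**Figure D3:**
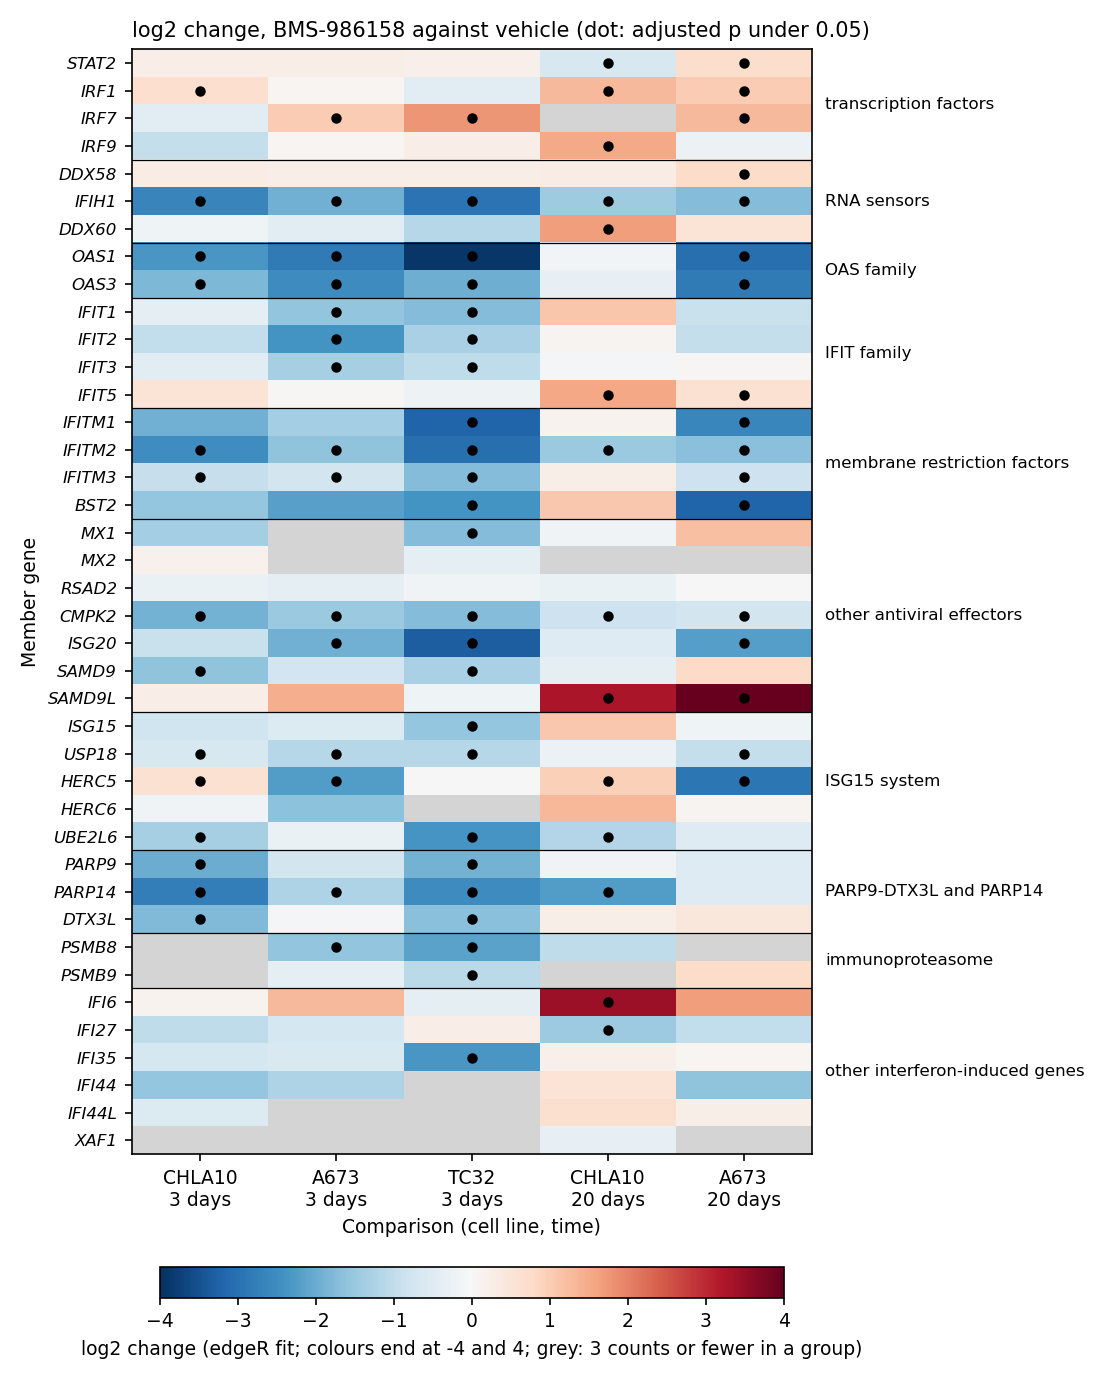
Log2 change under BMS-986158 against vehicle for each tested member (rows, grouped by role) in 5 comparisons (columns), with a dot at an adjusted p under 0.05 and grey where a group held 3 counts or fewer. OAS1 and OAS3 carry a dot in each column but CHLA10 at 20 days, and SAMD9L is red with a dot at 20 days in both lines.

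Among the transcription factors, IRF7, which drives interferon genes after virus sensing (ENSG00000185507, chromosome 11, 612553 to 615999, minus strand, GRCh38), rose where it was expressed. In TC32 it was at 9.82, 7.2 and 6.86 CPM under vehicle and 31.3, 24.4 and 25 under drug, a log2 change of 1.76 ± 0.29 (adjusted p = 2.16e-05), where ± is the standard error of the fit. In A673 at 3 days it was at 13.1, 15.8 and 11.9 CPM and 25.2, 26.8 and 30.3 CPM. The groups did not overlap in either line, and the change in A673 was 1.02 ± 0.28 (adjusted p = 0.00571) at 3 days and 1.29 ± 0.28 (adjusted p = 0.000563) at 20 days. CHLA10 had almost no IRF7: at most 0.445 CPM in a vehicle library, 0 in all 3 vehicle libraries of the 20-day arm and 11 counts in the 3 treated ones, at least 2.77-fold higher if the vehicle group is set to 3 counts in all. That CHLA10 call ended without any 1 of 5 of the 6 libraries of the arm (adjusted p 0.0593 to 0.0933; vehicle replicates 1, 2 and 3, treated replicates 2 and 3).

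IRF1 (ENSG00000125347, chromosome 5, 132481609 to 132490798, minus strand), whose window above holds a GAS match and no ISRE core, rose at 20 days. In CHLA10 it was at 2.67, 1.7 and 3.87 CPM under vehicle and 6.38, 5.4 and 8.23 under drug (1.29 ± 0.25, adjusted p = 0.000186). In A673 it was at 5.12, 4.77 and 4.55 and 10.6, 11.7 and 6.96 CPM (1.01 ± 0.24, adjusted p = 0.00107). Each treated library lay above each vehicle library in both lines. The smaller rise in CHLA10 at 3 days (0.66 ± 0.25, adjusted p = 0.0477) was not called when any 1 of the 6 libraries was left out (adjusted p 0.0547 to 0.157). In TC32 the change was -0.43 ± 0.23 (adjusted p = 0.141), and it differed from that of CHLA10 by -1.09 ± 0.34 (adjusted p = 0.0343). The TC32 groups did not overlap, and a fit of TC32 alone called IRF1 lower there. The strand setting of the counting is not given in the sources used here, so IRF1 reads may include some from genes that overlap 22.0% of its exon bases.

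STAT2, the partner of IRF9 in the ISRE-binding complex, moved in opposite directions at 20 days: A673 had 23.9, 35 and 34.4 CPM under vehicle and 40.1, 50.5 and 61.4 under drug (0.70 ± 0.16, adjusted p = 0.000739), and CHLA10 had 141, 149 and 97.4 and 94.8, 78 and 73.8 (-0.65 ± 0.15, adjusted p = 0.00171). The changes differed between the lines by 1.36 ± 0.22 (adjusted p = 6.24e-05). The CHLA10 vehicle libraries themselves were higher at 20 than at 3 days (1.13 ± 0.16, adjusted p = 4.42e-05), where they held 53.6, 63.9 and 59.7 CPM. The treated libraries of both times lay between 64.7 and 94.8 CPM. IRF9 was at or under 3.18 CPM in each library. In CHLA10 at 20 days it held 1.03, 0.472 and 1.08 CPM under vehicle and 3.11, 1.03 and 3.18 under drug (adjusted p = 0.0464). That call ended without treated replicate 1 or 3 or any vehicle library (adjusted p 0.0573 to 0.188), and 48.4% of its exon bases are shared with AL136295.5 on the same strand.

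Of the sensors of viral RNA, IFIH1, which encodes MDA5 (ENSG00000115267, chromosome 2, 162267079 to 162318703, minus strand), was called lower in each treatment comparison. In CHLA10 at 3 days its libraries held 5.51, 6.52 and 5.69 CPM under vehicle and 0.556, 0.579 and 1.69 under drug (-2.65 ± 0.56, adjusted p = 0.000686). In TC32 they held 3.63, 5.62 and 5.33 and 0.543, 0.687 and 0.64 (-2.95 ± 0.60, adjusted p = 0.000231). No treated library reached a vehicle library in either line. In A673 the change was -1.93 ± 0.57 (adjusted p = 0.00997) at 3 days and -1.72 ± 0.62 (adjusted p = 0.0269) at 20 days, and in CHLA10 at 20 days it was -1.42 ± 0.51 (adjusted p = 0.032), with 5.72, 1.03 and 1.1 CPM under drug. The last 3 calls were the weaker ones. The call in A673 ended at 3 days without treated replicate 3 (adjusted p = 0.0605), and at 20 days without treated replicate 1 or 2 or vehicle replicate 3 (0.0852 to 0.129). The CHLA10 20-day call ended without treated replicate 2 or 3 or vehicle replicate 1 or 2 (0.0706 to 0.155).

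DDX58, which encodes RIG-I, did not follow IFIH1. It was between 6.24 and 16.7 CPM in all 30 libraries and its change at 3 days lay between 0.27 and 0.29 in the 3 lines, none of them called. In A673 at 20 days it rose from 9.35, 7.26 and 9.16 to 14.5, 15.9 and 12.3 CPM (0.73 ± 0.27, adjusted p = 0.0306), a call that ended without treated replicate 1 or 2 or vehicle replicate 2 or 3 (adjusted p 0.0538 to 0.122). DDX60, a helicase linked to RIG-I signalling, followed the CHLA10 libraries: 17, 3.25 and 5.95 CPM in the treated 20-day libraries against 3.47, 2.36 and 2.33 under vehicle (1.68 ± 0.54, adjusted p = 0.0185), and 0.75 (adjusted p = 0.289) without treated replicate 1. That call also ended without vehicle replicate 2 or 3 (adjusted p 0.0723 and 0.0577). In TC32 DDX60 held 9.21, 10.4 and 7.12 CPM under vehicle and 3.41, 4.61 and 4.16 under drug. It was not called there in the fit over all lines, and was called lower in a fit of TC32 alone.

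The OAS enzymes make the messenger that switches on RNase L. Of 4 members, OAS1 and OAS3 were tested and both fell in 4 of the 5 comparisons. OAS3 (ENSG00000111331, chromosome 12, 112938352 to 112973249, plus strand) held 29.2, 39.7 and 41.3 CPM under vehicle and 5.03, 3.43 and 6.85 under drug in A673 at 20 days (-2.84 ± 0.47, adjusted p = 4.46e-05). At 3 days it held 23.4, 35.4 and 54.7 and 6.54, 7.57 and 5.85 in A673, and 45.1, 46.9 and 45.6 and 10.4, 10.4 and 18.7 in CHLA10. In all of these the highest treated library lay under the lowest vehicle library. The changes at 3 days were -2.52 ± 0.45 (adjusted p = 0.000174) in A673, -1.80 ± 0.43 (adjusted p = 0.00293) in CHLA10 and -1.96 ± 0.47 (adjusted p = 0.00156) in TC32. In CHLA10 at 20 days the groups overlapped, with 59.9, 18.1 and 10.7 CPM under drug and 47, 36.4 and 28 under vehicle (-0.33 ± 0.42, adjusted p = 0.587). That change differed from the one in A673 (-2.50 ± 0.62, adjusted p = 0.00543).

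OAS1 held 3.96, 4.44 and 3.06 CPM under vehicle and 0.247, 0.196 and 0.32 under drug in TC32 (-3.89 ± 1.02, adjusted p = 0.00345), and 9.42, 11.2 and 8.34 and 1.19, 1.55 and 1.32 in A673 at 3 days (-2.82 ± 0.78, adjusted p = 0.00743). In CHLA10 at 3 days it held 10.7, 10.1 and 9.71 under vehicle and 0.556, 0.446 and 5.07 under drug (-2.33 ± 0.76, adjusted p = 0.0235). The fall in CHLA10 was -4.32 (adjusted p = 0.000508) without treated replicate 3. The call ended without treated replicate 1 (adjusted p = 0.113), treated replicate 2 (0.106) or vehicle replicate 1 (0.0521). In the 20-day CHLA10 arm the treated libraries held 17.5, 1.85 and 2.24 CPM and the vehicle libraries 13, 7.84 and 2.39, a spread of several fold inside each group.

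The IFIT proteins bind viral RNA ends. IFIT1, IFIT2 and IFIT3 fell in A673 and TC32 at 3 days, and IFIT5 did not. The largest of these falls was that of IFIT2 in A673, from 3.89, 4.91 and 2.11 to 0.796, 0.359 and 0.871 CPM (-2.40 ± 0.47, adjusted p = 0.000244). IFIT3 went from 9.01, 9.28 and 5.66 to 3.35, 2.95 and 3.22 CPM in A673 (-1.33 ± 0.30, adjusted p = 0.00119) and by -1.03 ± 0.30 (adjusted p = 0.00577) in TC32. At 20 days IFIT3 was not called in A673 (0.05 ± 0.30, adjusted p = 0.926), and the difference between the times was 1.37 ± 0.42 (adjusted p = 0.0445), which stayed called in 7 of 20 alternatives. The IFIT1 calls were near the threshold (-1.59 ± 0.55, adjusted p = 0.0273 in A673 and -1.74 ± 0.61, adjusted p = 0.0227 in TC32). They ended in A673 without treated replicate 2 or 3 or vehicle replicate 2 or 3 (adjusted p 0.0515 to 0.102) and in TC32 without treated replicate 3 (0.112) or vehicle replicate 1 (0.0763). That of IFIT2 in TC32 (-1.30 ± 0.50, adjusted p = 0.0361) ended without treated replicate 2 or 3 or vehicle replicate 1 or 2 (0.113 to 0.131).

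IFIT5 moved the other way at 20 days. In CHLA10 it held 6.57, 5.66 and 8.76 CPM under vehicle and 22.8, 13 and 25.1 under drug (1.54 ± 0.21, adjusted p = 1.58e-06), with no overlap, while IFIT1 (1.10 ± 0.47, adjusted p = 0.0732) and IFIT3 (-0.06 ± 0.28, adjusted p = 0.909) were not called. In A673 IFIT5 rose by 0.61 ± 0.20 (adjusted p = 0.0149), a call that ended without treated replicate 1 (0.0536) or 2 (0.0929). The rise was larger in CHLA10 than in A673 (difference -0.93 ± 0.29, adjusted p = 0.0194), a call that ended without CHLA10 treated replicate 1 or 3 or vehicle replicate 2 (0.0515 to 0.0688).

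Among proteins that restrict virus at membranes, IFITM3 was, per kilobase of exon, the most abundant member in each of the 5 vehicle groups, at 66.8 to 184 CPM per kilobase. In TC32 it held 252, 228 and 265 CPM under vehicle and 85, 66.6 and 70.5 under drug (-1.74 ± 0.24, adjusted p = 3.38e-06). It also fell at 3 days in CHLA10 (-0.91 ± 0.24, adjusted p = 0.00555) and in A673 (-0.73 ± 0.24, adjusted p = 0.0184), and the fall of TC32 was larger than that of A673 (difference -1.01 ± 0.33, adjusted p = 0.0292). That difference was not called without TC32 treated replicate 2 or 3, TC32 vehicle replicate 1 or 3, or A673 vehicle replicate 3 (0.0549 to 0.0816). The A673 call ended without treated replicate 1 or 3 or vehicle replicate 1 or 2 (adjusted p 0.0506 to 0.097). At 20 days IFITM3 fell in A673 (-0.82 ± 0.24, adjusted p = 0.00788) but in CHLA10 held 176, 75.3 and 66.5 CPM under drug against 101, 82.3 and 87.1 under vehicle (0.23 ± 0.24, adjusted p = 0.49).

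IFITM2 (ENSG00000185201, chromosome 11, 307631 to 315272, plus strand) fell in each comparison, and no call ended with a library left out. It held 11.8, 11 and 14.1 CPM under vehicle and 1.78, 1.03 and 1.71 under drug in TC32 (-3.03 ± 0.39, adjusted p = 6.4e-07). In A673 it went from 17.3, 23.3 and 9.77 to 3.86, 6.1 and 6.48 at 3 days (-1.60 ± 0.35, adjusted p = 0.000814). In CHLA10 its level was low, 1.17, 1.73 and 1.47 CPM and 0.199, 0.134 and 0.434 CPM at 3 days (-2.50 ± 0.52, adjusted p = 0.000585). The treated libraries stayed under the vehicle libraries in all 3 lines, and at 20 days in A673 (-1.67) and CHLA10 (-1.49) as well. The IFITM genes are near-identical neighbours, IFITM1 and IFITM2 share 32.5% and 22.7% of their exon bases, and how shared reads were assigned is not given in the sources used here, so their single values are uncertain.

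IFITM1 and BST2, which encodes tetherin, followed the libraries. IFITM1 held 0.278, 0.0891 and 5.42 CPM in the treated 3-day CHLA10 libraries against 7.68, 6.67 and 7.68 under vehicle, and BST2 held 0.119, 0.134 and 2.17 against 2.11, 1.98 and 2.95. Neither change was called (adjusted p = 0.117 and 0.261). Without treated replicate 3 they were -5.24 (adjusted p = 0.00195) and -4.16 (adjusted p = 0.0258). Both fell in TC32 (-3.19 ± 1.19, adjusted p = 0.0331 and -2.38 ± 0.87, adjusted p = 0.0295) and in A673 at 20 days (-2.62 ± 0.89, adjusted p = 0.0228 and -3.19 ± 1.03, adjusted p = 0.0166). These 4 calls were fragile in the fit over all lines, in which the groups share an estimate of the spread. In TC32 that of IFITM1 ended without treated replicate 1 or 3 or any vehicle library (adjusted p 0.0552 to 0.101), and that of BST2 without any treated library or vehicle replicate 1 or 3 (0.0569 to 0.102). In A673 both ended without treated replicate 1 or 2 or vehicle replicate 3 (0.051 to 0.0957). Fitted on A673 or TC32 alone BST2 changed by -2.39 (adjusted p = 2.95e-06) in TC32, -2.19 (adjusted p = 0.0191) in A673 at 3 days and -3.19 (adjusted p = 0.00472) at 20 days. In those fits IFITM1 kept its calls in TC32 and in A673 at 20 days. The TC32 groups did not overlap for either gene. BST2 held 16.4, 14.6 and 16.2 CPM under vehicle and 3.46, 2.21 and 3.41 under drug there. IFITM1 held 3.35, 3.9 and 3.46 CPM and 0.198, 0.736 and 0.213 CPM.

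Of 7 other antiviral effectors, CMPK2, a mitochondrial nucleotide kinase, fell in all 5 comparisons. At 3 days its vehicle libraries held 4.98 to 11.7 CPM over the 3 lines and its treated libraries 1.08 to 3.90. The changes were -1.88 ± 0.30 (adjusted p = 2.38e-05) in CHLA10, -1.47 ± 0.29 (adjusted p = 0.000307) in A673 and -1.73 ± 0.29 (adjusted p = 2.19e-05) in TC32. At 20 days they were -0.83 ± 0.29 (adjusted p = 0.0292) in CHLA10 and -0.75 ± 0.28 (adjusted p = 0.0349) in A673. Those 2 calls ended with treated replicate 2 or 3 or vehicle replicate 1 or 2 left out in CHLA10 (0.063 to 0.111) and with treated replicate 1 or 3 or vehicle replicate 1 left out in A673 (0.0743 to 0.248). RSAD2, the viperin gene that shares a start region with CMPK2 on the other strand, was called in none: its changes lay between -0.38 and 0.03, and its libraries held 1.84 to 7.10 CPM.

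ISG20, an exonuclease of RNA, fell in TC32 from 1.06, 0.789 and 1.86 to 0.0494, 0.196 and 0.107 CPM (-3.31 ± 0.51, adjusted p = 7.97e-06) and in A673 at both times (-1.93 ± 0.37, adjusted p = 0.000226 and -2.20 ± 0.43, adjusted p = 0.000154). MX1 fell in TC32 from 1.62, 2.47 and 2.4 to 0.543, 0.736 and 0.64 CPM (-1.75 ± 0.50, adjusted p = 0.00581), and its A673 call at 3 days rested on 12 counts under vehicle and 3 under drug and ended without any treated library or vehicle replicate 1 or 3 (0.0617 to 0.109). MX2, the homologue that restricts retroviruses, was a gene of 1 line. TC32 held 65.5, 75.5 and 69.7 CPM under vehicle and 53.9, 55.9 and 53.3 under drug (-0.37 ± 0.28, adjusted p = 0.303), while no library of the other lines passed 0.304 CPM. The TC32 groups did not overlap for MX2, and a fit of TC32 alone called it lower. SAMD9, an antiproliferative factor, fell in CHLA10 at 3 days from 8.68, 8.2 and 9.25 to 1.43, 1.69 and 5.51 CPM (-1.60 ± 0.48, adjusted p = 0.0134). That call ended without treated replicate 1 (0.0877) or 2 (0.0789). The one in TC32 (-1.30 ± 0.52, adjusted p = 0.0424) ended without any treated library or vehicle replicate 2 or 3 (0.0876 to 0.132).

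SAMD9L (ENSG00000177409, chromosome 7, 93130055 to 93148369, minus strand), the neighbouring paralogue of SAMD9, rose at 20 days in both lines. In A673 it held 0.251, 0.183 and 0.194 CPM under vehicle and 5.51, 4.51 and 1.87 under drug (4.20 ± 0.63, adjusted p = 5.36e-06). In CHLA10 it held 0.704, 0.378 and 0.569 and 11.3, 2.92 and 1.71 (3.26 ± 0.57, adjusted p = 5.83e-05). All 6 treated libraries lay above all 6 vehicle libraries of the 20-day arms. At 3 days it was not called in CHLA10 (0.27 ± 0.56, adjusted p = 0.765), A673 (1.44 ± 0.78, adjusted p = 0.159) or TC32 (-0.18 ± 0.55, adjusted p = 0.831). The rise in CHLA10 was larger at 20 than at 3 days by 2.99 ± 0.79 (adjusted p = 0.024), but the call of that difference ended without 20-day treated replicate 1, 20-day vehicle replicate 1 or 2, or 3-day treated or vehicle replicate 1 or 2 (adjusted p 0.0516 to 0.113). Its promoter window held neither motif.

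The ISG15 system comprises the modifier ISG15, the conjugating enzyme UBE2L6, the ligases HERC5 and HERC6, and USP18, which removes ISG15 and damps the receptor. HERC5 (ENSG00000138646, chromosome 4, 88457117 to 88506163, plus strand) gave the smallest adjusted p of the members for a difference between lines. In CHLA10 it rose from 25.4, 24.6 and 27.3 to 39.1, 40.7 and 37.4 CPM at 3 days (0.60 ± 0.19, adjusted p = 0.017) and from 25.8, 30.7 and 22.8 to 55.3, 54 and 43.9 at 20 days (0.95 ± 0.19, adjusted p = 0.000285). In A673 it fell from 3.65, 4.2 and 3.17 to 0.739, 0.837 and 0.729 CPM (-2.25 ± 0.25, adjusted p = 1.73e-07) and from 1.33, 1.94 and 2.33 to 0.0529, 0.445 and 0.268 (-2.88 ± 0.36, adjusted p = 3.69e-07). The groups did not overlap in any of the 4, nor did the lines, since CHLA10 held the gene at many times the level of the others. TC32 held 2.57, 1.63 and 2.13 and 2.77, 1.57 and 2.08 CPM (0.03 ± 0.25, adjusted p = 0.954). The A673 change differed from that of CHLA10 by -2.85 ± 0.32 (adjusted p = 2.71e-06) at 3 days and -3.83 ± 0.41 (adjusted p = 1.43e-07) at 20 days, and each stayed called in all 20 alternatives. The CHLA10 3-day call itself ended without treated replicate 2 (0.0593) or vehicle replicate 1 (0.0552) or 2 (0.065).

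ISG15 itself held 84.4, 61.9 and 77.4 CPM under vehicle and 36.3, 18 and 21.3 under drug in TC32 (-1.56 ± 0.44, adjusted p = 0.00547). All 12 A673 libraries held 12.8 to 26.1 CPM, with no call in the fit over all lines. A fit of A673 alone called ISG15 lower at 3 days. In CHLA10 at 3 days the treated libraries held 4.93, 5.26 and 20.4 CPM against 17, 19.8 and 16.1 under vehicle (-0.79 ± 0.45, adjusted p = 0.195), and without treated replicate 3 the change was -1.79 (adjusted p = 0.00202). UBE2L6 fell in TC32 from 9.32, 6.41 and 7.39 to 2.03, 1.23 and 1.23 CPM (-2.36 ± 0.29, adjusted p = 3.24e-07) and in CHLA10 at both times (-1.34 ± 0.26, adjusted p = 0.0003 and -1.17 ± 0.26, adjusted p = 0.000965). In A673 it went from 19.1, 22.2 and 18.4 to 16.8, 16.3 and 16.4 CPM without a call, and the difference between TC32 and A673 was -2.09 ± 0.38 (adjusted p = 0.00028). USP18 fell in all 3 lines at 3 days, by -1.13 in A673, -1.13 in TC32 and -0.64 ± 0.19 (adjusted p = 0.0105) in CHLA10 on the log2 scale, and by -0.95 in A673 at 20 days. The CHLA10 call ended without treated replicate 3 (0.0716) or vehicle replicate 3 (0.0727).

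PARP9 and DTX3L encode partner proteins that enhance interferon signalling and lie head to head on chromosome 3 beside PARP14, another ADP-ribosyltransferase. PARP14 fell in TC32 from 31, 35.8 and 35.2 to 3.75, 6.23 and 7.89 CPM (-2.51 ± 0.33, adjusted p = 9.89e-07) and in CHLA10 from 8.79, 12.2 and 11.8 to 1.35, 1.2 and 2.25 (-2.77 ± 0.36, adjusted p = 1.77e-06). It also fell in CHLA10 at 20 days (-2.23 ± 0.34, adjusted p = 9.71e-06), where it was low in all 3 treated libraries (6.65, 1.92 and 2.04 CPM against 17.9, 17.1 and 14.6). The fall in A673 was -1.23 ± 0.33 (adjusted p = 0.00463) at 3 days. At 20 days it was -0.51 ± 0.32 (adjusted p = 0.221) there, which differed from CHLA10 by 1.71 ± 0.46 (adjusted p = 0.00838).

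DTX3L fell in TC32 from 25.3, 24.6 and 22.6 to 6.23, 7.9 and 8.74 CPM (-1.66 ± 0.38, adjusted p = 0.000991) and in CHLA10 from 10.4, 10.9 and 7.88 to 1.31, 1.74 and 5.55 (-1.77 ± 0.41, adjusted p = 0.00172). A673 held 8.20 to 9.82 CPM in all 6 libraries of the 3-day arm (-0.07 ± 0.38, adjusted p = 0.909). In the 20-day CHLA10 arm DTX3L was at 21.5, 4.47 and 8.89 CPM under drug. PARP9 fell in TC32 (-1.88 ± 0.61, adjusted p = 0.0151) and in CHLA10 at 3 days (-1.99 ± 0.63, adjusted p = 0.0185), where the treated libraries held 0.636, 0.535 and 6.11 CPM against 8.44, 9.53 and 10.9 under vehicle. That fall was -4.02 (adjusted p = 1.52e-05) without treated replicate 3, and the call ended without treated replicate 1 (0.0957), treated replicate 2 (0.0894) or vehicle replicate 3 (0.0523).

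The immunoproteasome subunits PSMB8 and PSMB9 were highest in TC32. PSMB8 held 45.4, 33.2 and 42.7 CPM under vehicle and 10.8, 9.67 and 7.09 under drug there (-2.13 ± 0.33, adjusted p = 8.12e-06), and no library of the other lines passed 0.905 CPM. PSMB9 held 6.86, 6.02 and 4.53 and 2.77, 3.04 and 2.4 CPM in TC32 (-1.08 ± 0.36, adjusted p = 0.0165), a call that ended without treated replicate 3 (0.0665) or vehicle replicate 1 (0.0722). In CHLA10 PSMB9 had 0 counts under vehicle and 6 under drug at 3 days, at least 1.59-fold higher, and the call ended without treated replicate 1 or any vehicle library (0.0764 to 0.195). The PSMB8 calls in A673 rested on 33 against 14 counts at 3 days and 36 against 2 at 20 days, and the first ended without any treated library or vehicle replicate 3 (0.0574 to 0.623). PSMB8 overlaps PSMB9 and PSMB8-AS1 on the other strand over 20.6% of its exon bases.

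IFI6, which encodes a mitochondrial and endoplasmic reticulum protein that blocks virus replication and apoptosis (ENSG00000126709, chromosome 1, 27666061 to 27672218, minus strand), varied widely between libraries. In CHLA10 at 3 days the vehicle libraries held 37.4, 40.8 and 38.9 CPM and the treated ones 6.83, 10.5 and 113. Replicates 1 and 2 lay under, and replicate 3 above, each vehicle library. The change was 0.15 ± 0.64 (adjusted p = 0.896), and -2.17 (adjusted p = 0.000659) without replicate 3. At 20 days the vehicle libraries held 13.8, 8.83 and 6.6 CPM and the treated ones 174, 35.9 and 106, with no overlap (3.43 ± 0.72, adjusted p = 0.000815, and 2.86, adjusted p = 0.00509 without replicate 1). IFI6 also lay higher under drug in every A673 library, at 26.7, 23.4 and 25.1 CPM against 10.6, 9.44 and 10.7 at 3 days and 25.6, 28.3 and 45.5 against 9.21, 10.2 and 11.7 at 20 days. It was not called there in the fit over all lines (1.29 ± 0.68, adjusted p = 0.152 and 1.68 ± 0.68, adjusted p = 0.0556), and was called in a fit of A673 alone, at 1.28 (adjusted p = 0.000401) and 1.68 (adjusted p = 2.82e-05). OAS1, OAS3 and HERC5 were lower under drug in the same A673 libraries. In TC32 IFI6 held 23.6, 22.6 and 25.7 CPM under vehicle and 22.5, 16.2 and 16 under drug. It was called lower there only in a fit of TC32 alone, not in the fit over all lines.

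**Figure D4:**
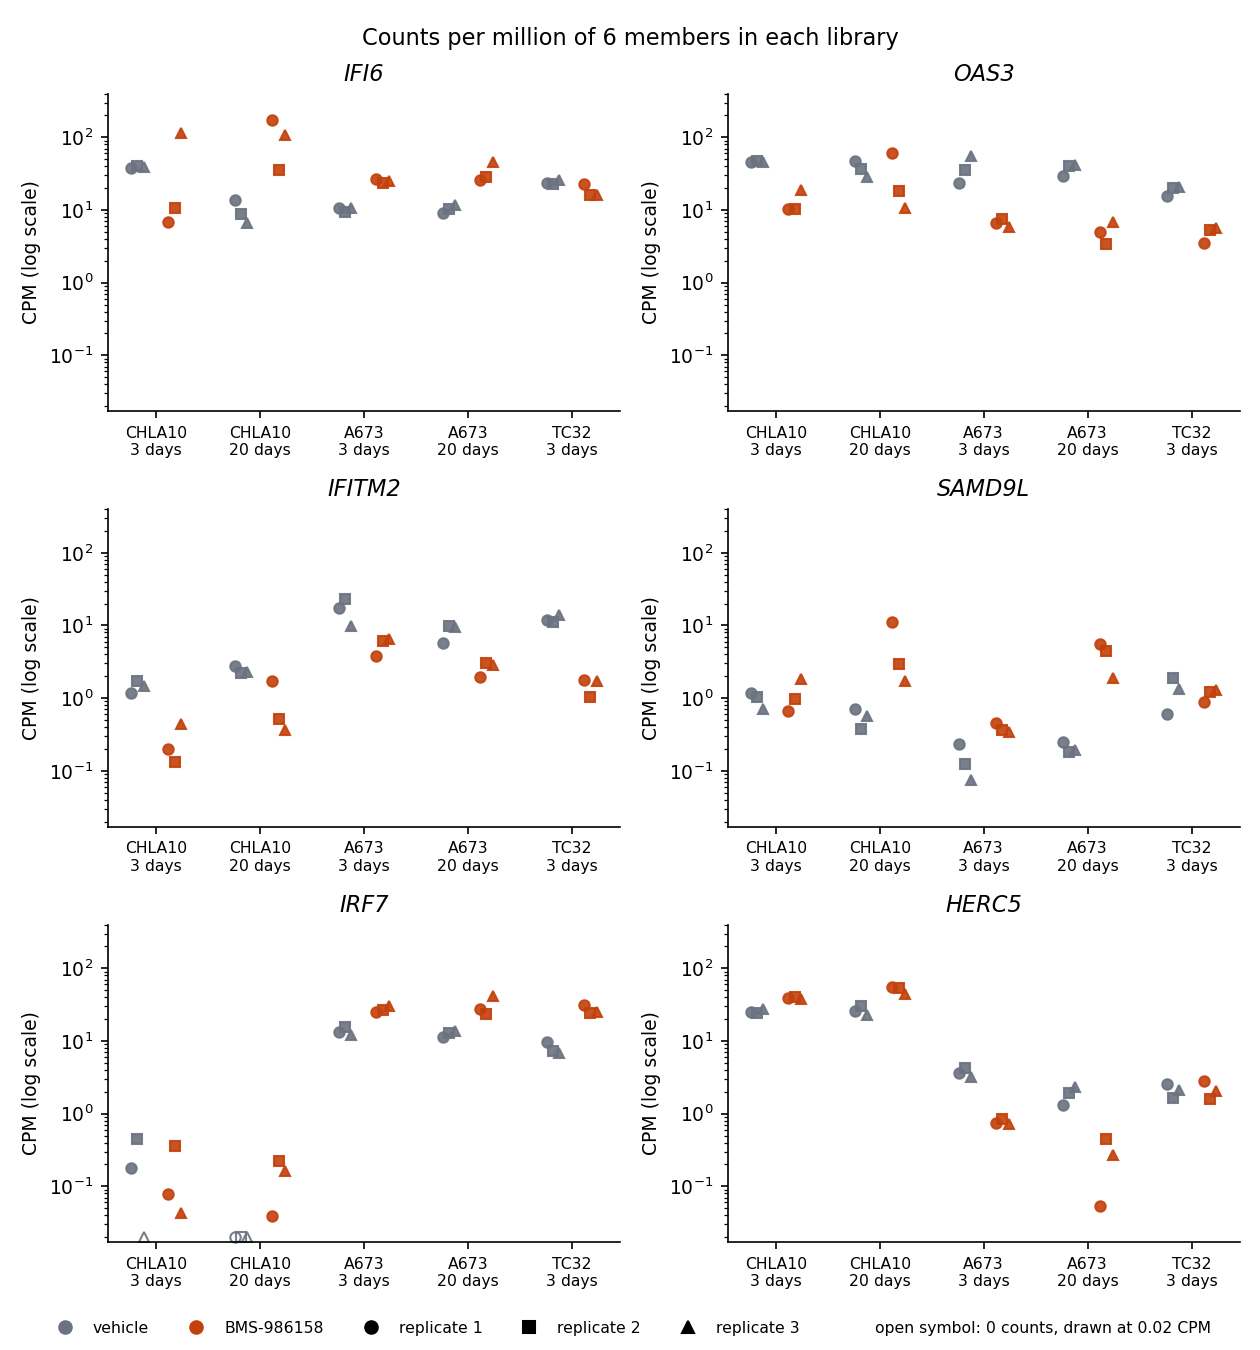
CPM on a log axis (y) of IFI6, OAS3, IFITM2, SAMD9L, IRF7 and HERC5 in each library by line and time (x), with vehicle in grey, BMS-986158 in orange, symbols for the replicate and open symbols for 0 counts, drawn at the foot of the axis. IFI6 in treated CHLA10 spans 6.83 to 113 CPM at 3 days, and HERC5 lies higher under drug in CHLA10 and lower in A673.

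IFI44L and IFI44, adjacent genes induced by interferon, were expressed mainly in CHLA10. At 3 days IFI44L held 14.6, 14.2 and 14.1 CPM under vehicle and 1.75, 1.47 and 26.2 under drug, and IFI44 18.2, 17.7 and 19.8 and 2.3, 1.56 and 15.2. Neither was called (-0.55 ± 0.87, adjusted p = 0.689 and -1.55 ± 0.64, adjusted p = 0.0734), and without treated replicate 3 the changes were -3.14 (adjusted p = 0.00839) and -3.26 (adjusted p = 0.000326). In the 20-day arm treated replicate 1 was the highest (30.8, 2.48 and 11.3 CPM of IFI44L). In A673 and TC32 IFI44L never passed 0.466 CPM. IFI35, a signalling adaptor, fell in TC32 from 16, 11.9 and 18 to 4.55, 2.45 and 2.13 CPM (-2.32 ± 0.38, adjusted p = 1.76e-05). In A673 its change was -0.60 ± 0.38 (adjusted p = 0.232), and TC32 differed from A673 by -1.73 ± 0.53 (adjusted p = 0.018). IFI27 was at most 2.37 CPM in each library. Its call in CHLA10 at 20 days (-1.46 ± 0.51, adjusted p = 0.0278) ended without treated replicate 2 or 3 or vehicle replicate 1 (adjusted p 0.0617 to 0.192). XAF1 was at most 1.23 CPM, and its calls in A673 and TC32 at 3 days rested on 33 and 54 counts under vehicle against 0 and 2 under drug. They ended in A673 without treated replicate 3 (0.0603) and in TC32 without treated replicate 1 or 2 (0.0559 and 0.0633).

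Tests of the difference between responses called 0 to 6 of the 40 members in each direction. Between 20 and 3 days in CHLA10, 5 responses were higher and 1 lower (all genes: 3.35% and 2.97%), with a median of 1.19 over members. The 5 were IFI6, SAMD9L, DTX3L, IFITM3 and IFIT5, and the 1 was STAT2. The count higher was 0 without 20-day treated replicate 1 or 20-day vehicle replicate 1 or 2, and 17 without 3-day treated replicate 3. In A673, 1 was higher and 0 lower between the times (all genes: 4.33% and 2.93%). At 3 days, A673 against CHLA10 gave 2 higher and 1 lower (all genes: 4.85% and 5.65%), or 6 higher without CHLA10 treated replicate 3. TC32 against CHLA10 gave 0 higher and 3 lower (all genes: 7.34% and 6.47%). TC32 against A673 gave 1 higher and 6 lower (all genes: 12.4% and 11.8%). At 20 days, A673 against CHLA10 gave 2 higher and 6 lower (all genes: 11.4% and 10.5%), and 2 lower without CHLA10 treated replicate 1 or vehicle replicate 2. HERC5 in the 3 comparisons where it was called, UBE2L6 in TC32 against A673, and OAS3, STAT2 and PARP14 in the 20-day comparison stayed called in all 20 alternatives.

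The vehicle libraries were compared for drift between the arms and for differences of level between lines. Between the 20-day and the 3-day vehicle libraries, CHLA10 had 1 member higher (STAT2) and 1 lower (IRF7), beside 8.05% and 7.06% of all genes, and A673 had 0 higher and 1 lower (HERC5, -0.99 ± 0.23, adjusted p = 0.0155), beside 3.02% and 3.08%. The IRF7 call ended without 3-day vehicle replicate 2 or 20-day vehicle replicate 1 or 2 (0.0847 to 0.197), and that of HERC5 without 3-day vehicle replicate 1 or 2 or 20-day vehicle replicate 1 (0.108 to 0.182). IFI6 was not called between the CHLA10 vehicle arms (adjusted p = 0.0555), where the 3-day libraries held 37.4 to 40.8 CPM and the 20-day libraries 6.60 to 13.8 CPM. Between lines at 3 days, TC32 had 20 members higher and 8 lower than CHLA10 (all genes: 31.0% and 30.1%) and 18 higher and 11 lower than A673 (all genes: 32.3% and 34.3%). A673 had 15 higher and 9 lower than CHLA10 (all genes: 31.5% and 29.7%). Against CHLA10, TC32 was higher in IRF7 (5.21), IFI35 (3.09) and IFITM2 (3.07) and lower in IFI44 (-6.00), HERC5 (-3.62) and IFIT1 (-2.07) on the log2 scale. ISG15 was higher in TC32 than in A673 (1.93 ± 0.44, adjusted p = 0.000564).

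The genes around the set were read from lists of the pathway. Messages of interferons were close to absent: of 21 ligand genes, 12 had 0 counts in all 30 libraries, IFNB1 and IFNG among them, and the other 9 had at most 14 counts each in all. Summed over the list, no library passed 0.375 CPM. Of 9 receptor and kinase genes, 2 rose and 1 fell in CHLA10 at 3 days, 1 rose and 1 fell in A673, and 3 rose in TC32. Of all genes, 14.0% rose and 15.7% fell in CHLA10, 15.3% and 18.4% in A673, and 22.3% and 22.8% in TC32, and these shares are the background for the lists that follow. IFNLR1, the specific receptor chain of type III interferon, fell in A673 (-2.68 ± 0.36, adjusted p = 2.17e-06 at 3 and -3.31 ± 0.45, adjusted p = 1.29e-06 at 20 days) and in CHLA10 (-1.13 ± 0.33, adjusted p = 0.00955 and -1.09 ± 0.33, adjusted p = 0.0105). In CHLA10 its mean went from 11.1 ± 0.932 to 5.09 ± 0.895 CPM (SD, n = 3) at 3 days. IFNAR1, the type I receptor chain, rose slightly in TC32 (0.41 ± 0.09, adjusted p = 0.000558) and CHLA10 (0.26 ± 0.09, adjusted p = 0.0313), and JAK1 rose slightly in TC32 (0.27 ± 0.10, adjusted p = 0.0302). JAK2 rose in TC32 (0.76 ± 0.15, adjusted p = 0.000106) and fell in CHLA10 at 20 days (-0.47 ± 0.14, adjusted p = 0.0125). The interferon gamma receptor gene IFNGR1 was called higher in each comparison but TC32 (adjusted p = 0.0639), most in A673 at 20 days (0.74 ± 0.11, adjusted p = 6.33e-06). TYK2 was called in none of the 5 comparisons, with changes of -0.05 to 0.15.

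Of 13 tested genes of nucleic acid sensing, 4 fell in CHLA10, 7 in A673 and 6 in TC32 at 3 days, and 1, 0 and 1 rose (all genes lower: 15.7%, 18.4% and 22.8%). IKBKE, a kinase that activates IRF3 and IRF7, fell in all 5 comparisons, in TC32 from 15.7 ± 4.56 to 2.57 ± 0.668 CPM (-2.60 ± 0.41, adjusted p = 8.28e-06). The adaptor MYD88 fell in the 3 lines at 3 days (-1.29 ± 0.22, adjusted p = 6.43e-05 in CHLA10, -0.61 ± 0.22, adjusted p = 0.035 in A673 and -1.16 ± 0.22, adjusted p = 0.000107 in TC32). Of 6 negative regulators, 3, 3 and 2 rose at 3 days in CHLA10, A673 and TC32, and 0, 1 and 2 fell (all genes higher: 14.0%, 15.3% and 22.3%). SOCS1, which blocks the JAK kinases, rose in A673 at 20 days (1.36 ± 0.30, adjusted p = 0.000705) and fell in TC32 (-1.29 ± 0.30, adjusted p = 0.00107).

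The last list held targets more typical of interferon gamma. Of 12 tested, 6 fell and 0 rose in CHLA10 at 3 days, 4 and 1 in A673, and 7 and 0 in TC32 (all genes lower: 15.7%, 18.4% and 22.8%). At 20 days 5 fell and 1 rose in CHLA10, and 3 fell (GBP1, GBP2 and GBP4) and 2 rose (ICAM1 and PSME1) in A673 (all genes lower: 17.2% and 19.9%). The guanylate-binding proteins, GTPases that attack intracellular pathogens, led the list. GBP1 went from 44.7 ± 2.54 to 5 ± 1.66 CPM in CHLA10 at 3 days (-3.16 ± 0.28, adjusted p = 4.2e-09) and from 42.9 ± 12.1 to 8.26 ± 3.97 at 20 days (-2.37 ± 0.27, adjusted p = 1.4e-07). In TC32 it went from 37.4 ± 2.39 to 9.45 ± 1.21 CPM (-1.98 ± 0.27, adjusted p = 1.35e-06). GBP2 fell in all 5 comparisons by -2.02 ± 0.52 (adjusted p = 0.00264) in TC32 up to -3.99 ± 0.55 (adjusted p = 4.19e-06) in CHLA10 at 20 days. In the 20-day CHLA10 arm, where IFI6 and SAMD9L were higher under drug, GBP1, GBP2 and PARP14 were lower.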

How the data were processed

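Poly(A) RNA-seq was analysed in 30 libraries, 3 in each of 10 groups of line, time and treatment. The deposited table holds counts per gene, which are not normalized; FastQC, Trim Galore, STAR and DESeq2 are named in the submitters' processing notes. For the counting, the build, annotation, strand setting and handling of multiply mapped reads were not given in the sources used here. Coordinates are from GENCODE 29 on GRCh38, matched by gene ID, and promoter windows from RefSeq on GRCh38.p14.

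Counts were tested with edgeR 4.0.16 in R 4.3.3: filterByExpr, TMM scaling, and a robust quasi-likelihood fit of 10 group means over all 30 libraries. P-values were adjusted by the Benjamini-Hochberg method over 16713 genes and called at 0.05. The script recovered known changes in simulated counts in which 200 genes had been changed. Those counts had an even spread, no outlying library and changes only in genes with higher counts. They do not speak for members with low counts or a wide spread. CPM values use TMM-scaled library sizes, and mean log2 CPM used a prior count of 2. Totals ran from 16083677 to 48949739 counts; floors of 3 counts cover counting error only. DESeq2 1.42.0 and other scalings, filters, fits and left-out libraries were tried.

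Values in every library were given for the 4 called members with the largest change each way in a treatment comparison and for the transcription factors. Differences and vehicle comparisons name 3 each way, and other lists up to 4 genes, with JAK1 and TYK2 added. Other members shown by library were chosen after their values were seen. The members and lists were chosen with earlier results of these data known. Same-numbered libraries were checked for pairing by the correlation of their deviations from the group means. Each of the 3 correlations passed 0.1 only in CHLA10 at 20 days (0.199, 0.15 and 0.361). Libraries with unlike numbers were not compared, and the labels give no pairing, so a pairing there is not established.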

Additional observations from a re-analysis of the deposited data

Results flagged for a closer look

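Each value here is a difference between responses to BMS-986158 on the log2 scale that passed edgeR's quasi-likelihood test of the difference itself at an adjusted p under 0.05, and the number of 20 alternatives that kept the call follows it.

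The response of HERC5 was lower in A673 than in CHLA10 at 3 days by -2.85 (20 of 20) and at 20 days by -3.83 (20), and higher in TC32 than in A673 by 2.28 (20). At 20 days, A673 also differed from CHLA10 in OAS3 by -2.50 (20), in PARP14 by 1.71 (20), in STAT2 by 1.36 (20) and in BST2 by -4.27 (11, with an adjusted p of 0.374 without CHLA10 treated replicate 1). In TC32 against A673 at 3 days the response differed by -2.09 for UBE2L6 (20), -1.73 for IFI35 (18) and -1.59 for DTX3L (10).

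Between 20 and 3 days in CHLA10, the response differed by 3.28 for IFI6 (7), 1.98 for DTX3L (10), 1.14 for IFITM3 (9) and -0.92 for STAT2 (19, with 0.0613 without 20-day vehicle replicate 2). In A673 it differed by 1.37 for IFIT3 (7). At 3 days, A673 differed from CHLA10 by 1.69 for DTX3L (4) and 1.53 for PARP14 (8), and TC32 differed from CHLA10 by -1.09 for IRF1 (11). The IFI6, DTX3L and IFITM3 differences between times were not called without 20-day treated replicate 1 of CHLA10 (adjusted p 0.103, 0.122 and 0.116).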

How the results depend on the processing

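Of 1121 alternative values for 74 named changes, 941 kept the call, 180 lost it and 0 turned. The CHLA10 counts depend on single libraries, and members under about 1 CPM rest on few counts.

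Each count of members is that under the alternative, with the reported count in brackets where first named. Fitting only the lines compared gave 1 higher in CHLA10 at 3 days (3), 2 in A673 at 3 days (1), 6 in CHLA10 at 20 days (10), 0 for CHLA10 between times (5) and for A673 against CHLA10 at 3 days (2), and 0 lower between vehicle arms of CHLA10 (1) and A673 (1). A change of at least 1 gave 1 higher in CHLA10 at 3 days, 3 in A673 at 20 days (6), 0 lower for CHLA10 between times (1) and 0 between A673 vehicle arms. Without the 4 most distant libraries, counts were 6 higher in CHLA10 at 20 days, 4 for A673 between times (1), 3 lower for A673 against CHLA10 at 3 days (1), 6 for TC32 against CHLA10 (3), 10 for A673 against CHLA10 at 20 days (6), and 2 higher (1) and 5 lower between vehicle arms of CHLA10 and A673. DESeq2 gave 8 higher for CHLA10 and 3 for A673 between times, 1 for TC32 against CHLA10 (0), and 2 and 3 lower between the vehicle arms. No filter gave 2 higher for CHLA10 and 0 for A673 between times, 0 for A673 against CHLA10 at 3 days, and 1 and 2 lower for TC32 against CHLA10 and A673 (6). Library size alone gave 0 higher for A673 between times and for A673 against CHLA10 at 3 days; RLE factors gave 1 higher and 2 lower there. CPM above 1 in 3 libraries gave 2 lower there and between CHLA10 vehicle arms.

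With the replicate number as a block, which was not run for vehicle arms and lines, TC32 against CHLA10 had 1 higher and 6 lower, TC32 against A673 2 higher (1) and A673 between times 0 higher. The treatment counts, higher and lower, were 4 and 14 in CHLA10, 1 and 16 in A673 and 1 and 24 in TC32 at 3 days, and 7 and 12 in A673 at 20 days. The mean level of A673 at 3 days differed by -0.64 over members above log2 CPM 2 (-0.82 over all), and that of TC32 by -1.25, or -1.44 as a median (-1.34).

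With 1 library left out, treatment counts higher and lower at 3 days ranged over 0 to 2 and 9 to 23 in CHLA10. They were 10 to 15 lower in A673 and 19 to 22 lower in TC32. At 20 days they ranged over 6 to 12 and 4 to 10 in CHLA10 and 4 to 6 and 8 to 12 in A673. Between times they ranged over 0 to 17 and 0 to 1 in CHLA10 and 0 to 2 higher in A673. They were 0 to 6 and 1 to 2 for A673 against CHLA10, 0 to 3 and 1 to 4 for TC32 against CHLA10 and 1 to 5 lower for TC32 against A673 at 3 days, and 2 to 4 and 2 to 10 for A673 against CHLA10 at 20 days. Vehicle arms gave 0 to 1 lower in CHLA10 and 0 to 4 in A673, and TC32 against A673 under vehicle 7 to 10 lower.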
